A study of Zea mays with 21 samples.

Results

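WT V9 leaf was set against WT V4 leaf, to describe how the leaf transcriptome of wild-type maize differs between a later and an earlier vegetative stage. These 6 of the 21 libraries were chosen by genotype, tissue and stage label, 3 for each stage, and all gene IDs of the count table were examined. WT is the wild type that the labels set beside the mutant zb10, and no treatment is named. V stages are vegetative stages counted by the leaves with a visible collar, so V9 is the later one. The count columns matched to V4 leaf are named 3L. The other groups used here are zb10 leaf at V9, the green and the white section of zb10 leaf at V4, and endosperm of WT and zb10 at 16 days after pollination. The mutant zb10 is described by the series as having lost the function of ZmPTOX, a terminal oxidase of plastids. The labels give neither the position of the sampled leaf on the plant nor its age, nor the time of day, so stage and these properties cannot be told apart. In bulk tissue, more cells of a type and more RNA per cell cannot be told apart either.

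A maize shoot makes its leaves one after another. Early leaves are juvenile, with a waxy surface and few hairs, and later leaves are adult, with hairs and specialised epidermal cells; the shoot passes from one phase to the other while it is still vegetative. Both kinds of leaf carry out C4 photosynthesis, in which mesophyll and bundle sheath cells share the fixation of carbon. Gene names are not in the count table, and 0 of its 50142 IDs were found in the RefSeq gene table of Zm-B73-REFERENCE-NAM-5.0. Genes are therefore given by ID with no function, and the tissue label could not be checked on named leaf markers. Of the IDs, 39323 have the reference form (Zm00001d) and 10819 are newGene loci, here called new loci.

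Library totals were 123050963, 32482762 and 42032400 counts in WT V9 leaf and 37292787, 35479089 and 35388006 counts in WT V4 leaf. V9 replicate 1 was thus far deeper than the others. V9 replicate 2 stood apart from its group: its log2 CPM (a gene's share of its library's counts, scaled by TMM) correlated across genes at 0.96 and 0.97 with the other V9 libraries, against 0.99 between those and 0.99 for each pair of V4 libraries. Between the stages the correlations were 0.85 to 0.87. The first principal component held 82.4% of the variance and separated the stages, and the second held 9.66% and set V9 replicate 2 apart. Leaf-enriched genes, defined below on other libraries, held 37.5% to 43.5% of counts at V9 and 42.6% to 44.4% at V4, and endosperm-enriched genes 0.18% to 0.237% and 0.194% to 0.22%. Zm00001d042453, picked for its abundance in zb10 with the values known, had 168, 129 and 140 CPM in zb10 V9 leaf, against 0.0601, 0.373 and 0.134 CPM in WT V9 leaf. WT V4 leaf had 0.0522, 0.201 and 0 CPM, so all 6 WT libraries were near 0 for that ID.

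The 2 stages differed in a large part of the transcriptome. Of 26212 genes that passed the count filter, 5697 were higher at V9 (21.7%) and 5919 were lower (22.6%), which together is 44.3% of the genes tested (edgeR quasi-likelihood test, Benjamini-Hochberg adjusted p under 0.05). Among these, 3211 were higher and 3883 lower by more than 2-fold, 1528 and 2102 by more than 4-fold, and 451 and 835 by more than 16-fold. Calls were thus nearly even in number, and the large differences lay more often on the side that was lower at V9. Tested against a 2-fold threshold in place of any difference, 1728 genes were higher and 2351 lower. The median log2 fold change over all genes was 0.01, with the middle 50% of genes between -0.60 and 0.54. The CPM of the V9 and V4 libraries did not overlap in 57.8% of genes tested.

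**Figure D1:**
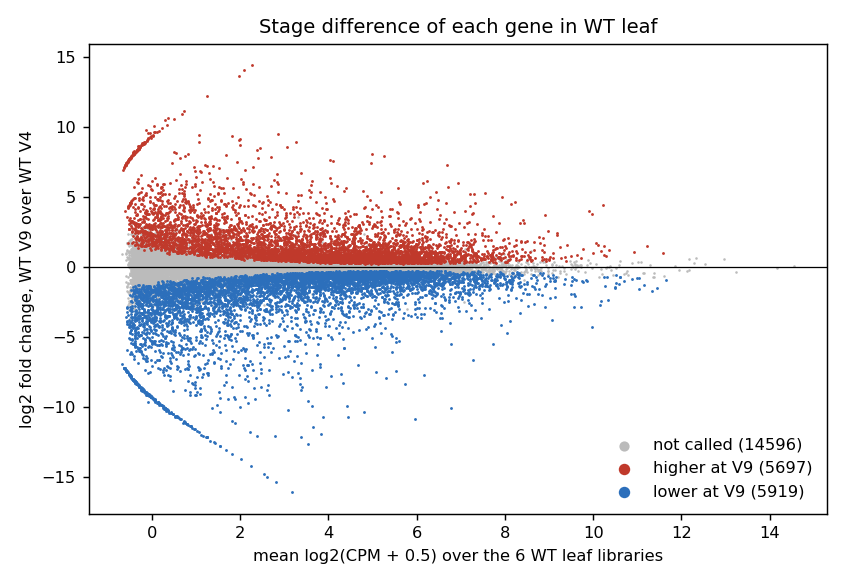
Log2 fold change of WT V9 over WT V4 leaf (vertical axis) against the mean log2(CPM + 0.5) over the 6 libraries (horizontal axis), with 1 point for each of 26212 genes. Red points are the 5697 genes higher at V9 and blue points the 5919 lower, and blue points reach further from 0 than red ones.

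Genes called were found at all levels of expression. In classes of level set on zb10 leaf, 4496 of 28392 genes under 1 CPM passed the count filter. Of these 4496, 13.2% were higher and 18.9% lower at V9. A gene of this class can pass through its level at 1 WT stage, so these shares describe the genes that passed and no others. From 1 to 10 CPM, 20% of 9219 genes were higher and 23.4% lower. From 10 to 100 CPM, 25.8% of 10957 genes were higher and 22.2% lower, and from 100 to 1000 CPM, 28.3% of 1457 were higher and 30.5% lower. Above 1000 CPM, 14 of 83 genes were higher and 29 lower, and their median log2 fold change was -0.36. Genes at this level were thus lower more often than higher. These 83 genes are among the 100 most abundant leaf transcripts described below, whose counts moved with single libraries. The class from 10 to 100 CPM was the one class of 5 with more genes higher than lower. Genes above 1 CPM numbered 21162, 20570 and 20993 in the V9 libraries and 21511, 21525 and 21367 in the V4 libraries. The V9 counts all lay below the V4 counts (exact two-sided permutation p = 0.1, the smallest that 3 against 3 libraries allow).

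Some of the largest differences were in transcripts with no count at the other stage. Zm00001d043461 had 48.9, 84.4 and 22.1 CPM in WT V9 leaf and 0 counts in each WT V4 library. It was at least 1750-fold higher at V9 by a floor of 3 counts over the V4 group (adjusted p = 0.00066, edgeR). Zm00001d037232 had 60.9, 16.1 and 45.1 CPM at V9 and 0 counts at V4, at least 1830-fold higher by the same floor (adjusted p = 0.000713, edgeR). Both IDs varied more than 3-fold among the V9 libraries, and V9 replicate 2 was the highest library for one and the lowest for the other.

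On the side that was lower at V9, Zm00001d027291 had 0 counts in each WT V9 library and 130, 234 and 141 CPM in WT V4 leaf. It was at least 11700-fold lower at V9 by a floor of 3 counts over the V9 group (adjusted p = 4.57e-05, edgeR). The new locus Zea_mays_newGene_10510 had 0 counts in each V9 library and 83.2, 103 and 113 CPM at V4, at least 6950-fold lower by that floor (adjusted p = 1.26e-05, edgeR). Both were also at or near 0 in zb10 V9 leaf, where the highest library had 0.024 CPM of Zm00001d027291 and none had a count of Zea_mays_newGene_10510. In the zb10 V4 green section they stood at 177, 66.1 and 133 CPM and at 58.5, 67.3 and 60.5 CPM.

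The IDs with the lowest p among those counted in all 6 libraries, named after their values were seen, showed little spread within a stage. Zm00001d020852 had 303, 339 and 324 CPM in WT V9 leaf, against 7.05, 6.17 and 6.33 CPM in WT V4 leaf (log2 fold change 5.64, SE 0.14, adjusted p = 3.52e-06, edgeR). Zm00001d023601 had 83.8, 79.9 and 84.1 CPM at V9 and 2.77, 3.41 and 3.32 CPM at V4 (log2 fold change 4.71, SE 0.12). For both, the V9 libraries lay close together and far above every V4 library. Zm00001d023781 had 0.293, 0.28 and 0.47 CPM at V9, against 546, 559 and 596 CPM at V4 (log2 fold change -10.69, SE 0.25). Zm00001d017241 had 0.421, 0.373 and 0.559 CPM at V9 and 98.4, 120 and 108 CPM at V4 (log2 fold change -7.90, SE 0.18). These 2 were well expressed in V4 leaf and close to the detection limit in V9 leaf. In endosperm, Zm00001d023781 was also near 0, at a mean of 0.054 CPM, whereas Zm00001d017241 stood at 16 CPM.

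**Figure D2:**
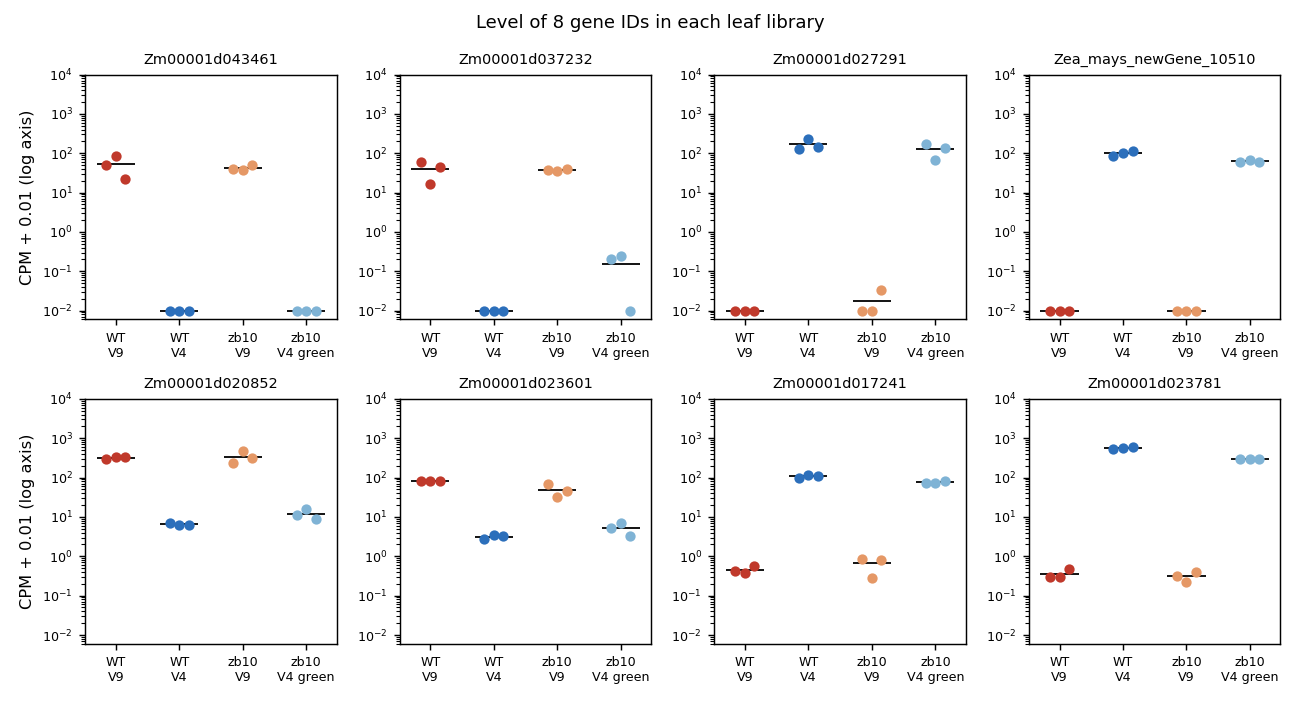
CPM + 0.01 on a log axis for 8 gene IDs, with 1 panel for each ID and 1 point for each library of WT V9, WT V4, zb10 V9 and zb10 V4 green leaf; lines are group means. In each panel the V9 and V4 libraries lie in separate ranges, in WT and in zb10; points at 0.01 are libraries with no count.

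Transcripts found at 1 stage alone were more numerous at V4. At V4, 140 genes had a mean of at least 1 CPM and 0 counts in all 3 V9 libraries, and 87 of them were new loci. At V9, 43 genes had at least 1 CPM and 0 counts in all V4 libraries, and 8 were new loci. The V9 libraries held more counts in all, so 0 counts is the stricter condition at V9. Libraries that played no part in this choice held much the same pattern: of the 140 genes, 135 were at or under 0.1 CPM in zb10 V9 leaf and 112 reached 1 CPM in the zb10 V4 green section. Of the 43, 36 were at or under 0.1 CPM in the zb10 V4 green section and 31 reached 1 CPM in zb10 V9 leaf. In endosperm, 17 of the 140 and 19 of the 43 were at 1 CPM or more. Of all genes tested in WT leaf, 30% were under 1 CPM in endosperm and 13.1% were new loci.

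Gene groups were then defined on libraries outside the comparison. Leaf-enriched genes had at least 10 CPM in zb10 leaf (mean of V9 and V4 green section) and at least 16 times their endosperm level, and endosperm-enriched genes the reverse. Shared genes had at least 10 CPM in both tissues and differed less than 4-fold. Among 2163 leaf-enriched genes, 611 were higher (28.2%) and 824 lower (38.1%) at V9, against 21.7% and 22.6% of all genes tested, and their median log2 fold change was -0.25 against 0.01. Shared genes went the other way in number: of 7323 tested, 1844 were higher (25.2%) and 1278 lower (17.5%), and the median was 0.07. The differences of shared genes were mostly small, as 403 of 7323 were higher and 364 lower by more than 2-fold. Of the 2163 leaf-enriched genes, 453 were higher and 560 lower by that much. Of all 26212 genes tested, 3211 were higher and 3883 lower by more than 2-fold. Leaf-enriched genes were thus called lower more often than shared genes. The share called higher, 28.2% against 25.2%, turned round in order with more libraries in the fit. With all 15 leaf libraries 639 of 2163 leaf-enriched and 2194 of 7325 shared genes were higher, and with all 21 libraries 553 and 2018. On leaving out libraries, leaf-enriched genes stayed called higher more often. Without V4 replicate 2, 532 of 2163 leaf-enriched and 1213 of 7324 shared genes were higher, and without V4 replicate 3, 536 and 1208. Leaving out any other WT library kept this order. So did the test against a 2-fold threshold, with 335 of 2163 leaf-enriched and 223 of 7323 shared genes higher.

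The 100 most abundant leaf transcripts included 17 higher and 36 lower at V9, against 21.7% and 22.6% of all genes tested, and their median log2 fold change was -0.33. Single libraries moved these values: without V9 replicate 2, 57 were lower and the median was -0.52, and without V9 replicate 1, 28 were lower and the median was -0.19. Leaving out V4 replicate 3 or V9 replicate 3 gave 24 lower. Zm00001d016070, the highest of them in fold change, had 5501, 4954 and 6386 CPM in WT V9 leaf, against 271, 272 and 231 CPM in WT V4 leaf (log2 fold change 4.45, SE 0.23, adjusted p = 1.85e-05, edgeR). Zea_mays_newGene_7978, the lowest, had 0.135, 0.684 and 3.58 CPM at V9 and 2549, 2636 and 2829 CPM at V4 (log2 fold change -10.89, SE 1.25, adjusted p = 0.000535, edgeR). Both IDs were named after their values were seen. One of the most abundant leaf transcripts at V4 was therefore nearly absent at V9, and one of those at V9 was far less abundant at V4.

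**Figure D3:**
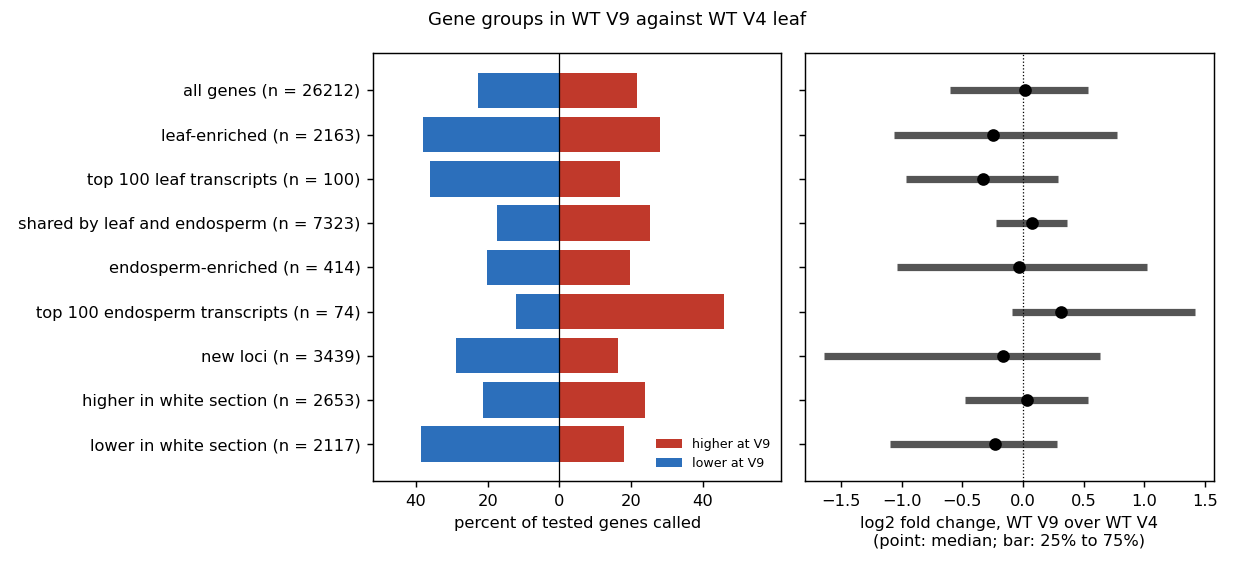
Left, percent of the tested genes of each group called higher (red, to the right) and lower (blue, to the left) in WT V9 than in WT V4 leaf; right, the median log2 fold change (point) with the 25% to 75% range (bar). In the left panel, leaf-enriched genes, the top 100 leaf transcripts and genes lower in the white section extend furthest to the lower side and the top 100 endosperm transcripts to the higher side, while in the right panel the range of new loci reaches lowest.

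Endosperm-enriched genes held little of the leaf counts at both stages, whereas several of the most abundant endosperm transcripts were abundant in leaf too. A gene can pass the count filter through its level at 1 stage, so counts in groups that passed in part describe the genes that passed and no others. Of 876 endosperm-enriched genes 414 passed the count filter, of which 82 were higher and 84 lower at V9, close to the share over all genes; their median of -0.03 changed sign with library-size scaling (0.02), without the count filter (0.35), with all 15 leaf libraries in the fit (0.05) and on leaving out any V4 library or V9 replicate 3. Of the 100 most abundant endosperm transcripts, many of which leaf expresses too, 74 passed the filter and 34 were higher and 9 lower at V9 (45.9% and 12.2%, against 21.7% and 22.6% of all genes tested). Their median of 0.32 was 0.83 without the filter, 0.14 with a minimum count of 50 and up to 0.56 on leaving out 1 library, which was V4 replicate 2. Zm00001d023376 was among the 34, with 3269, 4682 and 3306 CPM in WT V9 leaf, against 264, 329 and 242 CPM in WT V4 leaf, and 1452 CPM in endosperm (log2 fold change 3.76, SE 0.25, adjusted p = 4.91e-05, edgeR). Zm00001d008620, with 1286 CPM in endosperm, was among the 9, at 4.95, 6.06 and 7.18 CPM at V9 and 96.3, 179 and 121 CPM at V4 (log2 fold change -4.44, SE 0.28, adjusted p = 3.89e-05, edgeR). These IDs too were named after their values were seen, and their leaf libraries did not overlap between the stages.

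The shares of counts held by the groups were compared over libraries. Leaf-enriched genes held 37.5%, 43.5% and 39.6% of counts in the V9 libraries and 42.6%, 44.4% and 44.4% in the V4 libraries. V9 replicate 2 lay within the V4 range, so the stages overlapped. The difference of the means was -3.60 percentage points, with SDs of 3.08 at V9 and 1.07 at V4 (exact two-sided permutation p = 0.2). The top 100 endosperm transcripts held 4.24%, 5.27% and 4.56% at V9, against 4.04%, 4.18% and 4.06% at V4. Here the ranges did not overlap (exact two-sided permutation p = 0.1). The 50 most abundant genes of each library held 17.1%, 23.0% and 18.9% at V9 and 20%, 21.2% and 20.8% at V4, with V9 replicate 2 above and the other V9 libraries below all V4 libraries.

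Among the IDs that passed the count filter, new loci were lower at V9 more often than reference IDs. Of 10819 new loci 3439 passed the filter, of which 567 were higher (16.5%) and 989 lower (28.8%), against 5130 higher (22.5%) and 4930 lower (21.6%) of 22773 reference IDs. Among differences over 16-fold the contrast was wider: 412 new loci were lower and 107 higher, where 423 reference IDs were lower and 344 higher. New loci held 1.99%, 1.84% and 1.91% of counts in the V9 libraries, against 3.79%, 2.65% and 3.29% in the V4 libraries, without overlap (exact two-sided permutation p = 0.1). The median log2 fold change of tested new loci, -0.17, was 0.006 without the count filter, but the called loci stayed more often lower, at 1049 against 614 higher.

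Single new loci moved both ways. Zea_mays_newGene_22824 had 139, 70.9 and 188 CPM in WT V9 leaf, against 0.496, 0.316 and 0 CPM in WT V4 leaf (log2 fold change 8.91, SE 0.72, adjusted p = 0.000107, edgeR). Zea_mays_newGene_25607 had 124, 27.7 and 116 CPM at V9 and 2.14, 1.32 and 3.21 CPM at V4 (log2 fold change 5.34, SE 0.65, adjusted p = 0.000708, edgeR). V9 replicate 2 was the lowest V9 library for both, and still above every V4 library. Zea_mays_newGene_5894 had 0 counts in each V9 library and 68.9, 50.6 and 118 CPM at V4, at least 5520-fold lower by a floor of 3 counts over the V9 group (adjusted p = 0.000135, edgeR).

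The genes that separate the white from the green section of zb10 leaf at V4 were followed in WT, whose libraries took no part in defining them. Of 25885 genes tested there, the white section was higher in 2891 (11.2%) and lower in 2123 (8.2%). Of the genes lower in the white section, 2117 were tested in WT: 384 were higher (18.1%) and 815 lower (38.5%) at V9, with a median log2 fold change of -0.23, and 9 were higher and 164 lower by more than 16-fold, against 451 and 835 of all genes tested. Of those higher in the white section, 2653 were tested, with 635 higher (23.9%) and 568 lower (21.4%), near the share over all genes, and a median of 0.03. Genes that are less abundant in the white tissue were thus also more often lower in V9 than in V4 leaf of WT. Both sections are V4 leaf, however, and a gene with little expression in the green section could hardly be called lower in the white one. The group therefore leans towards genes expressed at V4, and the part of this choice in the counts was not tested. Zm00001d051459, which is lower in the white section, went against this, with 74.3, 113 and 67.3 CPM in WT V9 leaf, against 0.652, 0.832 and 0.887 CPM in WT V4 leaf (log2 fold change 6.75, SE 0.28, adjusted p = 8.86e-06, edgeR). Zm00001d002999, higher in the white section, had 0.188, 0.28 and 0.224 CPM at V9 and 28.5, 23.3 and 32.6 CPM at V4 (log2 fold change -7.00, SE 0.23, adjusted p = 4.59e-06, edgeR). Genes higher in the white section held 9.97%, 8.35% and 9.54% of counts at V9, against 7.52%, 7.19% and 7.49% at V4, also without overlap and by 1.88 percentage points more at V9 (exact two-sided permutation p = 0.1). Genes lower in the white section held 12.8%, 12.3% and 13.1% of counts at V9, against 14%, 14% and 13.8% at V4, without overlap (exact two-sided permutation p = 0.1).

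Genes with consecutive ID numbers were called in the same direction more often than those further apart. Of 2371 pairs of tested genes whose ID numbers differ by 1 and that were both called, 1440 (60.7%) had the same direction. The share was 54.3% for numbers that differ by 2, 53% at a difference of 5, and 50.5% and 51.4% at differences of 50 and 500. The longest unbroken run of consecutive numbers called in 1 direction held 5 genes, on the higher and on the lower side. The sources used here do not say how reads shared by near-identical neighbours were counted, and the part of this was not tested.

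The same stage contrast was computed in zb10 leaf, from 6 libraries that the WT comparison does not use: V9 leaf against the green section at V4. The V9 label names no section, so stage and section sampled change together there. In zb10, 5510 of 26292 genes were higher (21%) and 5929 lower (22.6%) at V9. Of the 5608 genes higher at V9 in WT and tested in zb10, 5480 had a positive fold change there (97.7%) and 4049 were called higher (72.2%), which is 75.2% of the 5384 zb10 calls tested in WT. Of the 5745 lower in WT, 5646 had a negative one (98.3%) and 4390 were called lower (76.4%), which is 75.6% of the 5806 zb10 calls. Over all genes tested in both, 84.3% had the same sign. Opposite calls were rare, at 5 genes higher in WT and lower in zb10 and 3 the other way. Across 25510 genes, which are not independent replicates, the log2 fold changes of WT and zb10 correlated at 0.91, and their SDs were 1.82 in WT and 1.77 in zb10.

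Of the IDs named above, Zm00001d043461 was also the highest in zb10, with 39.6, 38.6 and 51.6 CPM in zb10 V9 leaf and 0 counts in the V4 green section. Zm00001d014083, the next highest there, had 22.9, 49.3 and 33.4 CPM in zb10 V9 leaf and 0 counts in the V4 green section, and in WT 25.1, 37.2 and 28.6 CPM at V9 and 0 counts at V4. Zea_mays_newGene_3374 had 0 counts in zb10 V9 leaf and 78.9, 52 and 63 CPM in the V4 green section, and in WT 0 counts at V9 and 68.8, 67.6 and 62.4 CPM at V4. For each of these IDs the WT and zb10 libraries of a stage were in the same range.

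**Figure D4:**
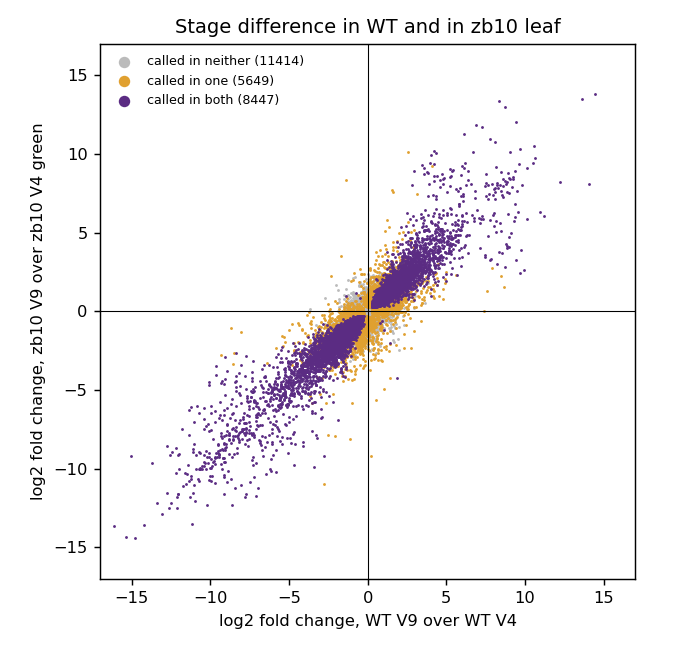
Log2 fold change of V9 over V4 in WT leaf (horizontal axis) and in zb10 leaf, with the green section at V4 (vertical axis), for 25510 genes tested in both. Purple points are the 8447 genes called in both, and they lie along the diagonal; orange points are the 5649 called in one.

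Whether the stage difference itself differed between WT and zb10 was tested by an interaction contrast over the 12 libraries. It passed in 7 of 27858 genes (0.0251%), 2 with a more positive and 5 with a more negative stage difference in WT, and 2722 genes had an unadjusted p under 0.05, where 1393 are expected if no gene differed. DESeq2 called 398 genes in this contrast, of which 60.6% were more positive in WT, against 28.6% of the edgeR calls. Without WT V9 replicate 2, 216 genes passed in edgeR, 168 more positive and 48 more negative. Without WT V9 replicate 1 the count was 16, and 6 of the 7 main calls were among them. Without replicate 1 of the zb10 V4 green section it was 6, with 2 of the 7 among them. Without any 1 of the other 9 libraries it was 0 to 2. A gene that did not pass is not thereby shown to have the same stage difference in both genotypes.

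Among the 7, Zm00001d042673 had 41.9, 35.5 and 34.6 CPM in WT V9 leaf and 19.5, 21.4 and 19.3 CPM in WT V4 leaf, and in zb10 25.8, 19.2 and 21.4 CPM at V9 and 31.9, 31.4 and 36.8 CPM in the V4 green section. It was thus higher at V9 in WT and lower at V9 in zb10 (difference of log2 fold changes 1.49, SE 0.18, adjusted p = 0.0353, edgeR). Zea_mays_newGene_10916 had 58.9, 47.3 and 51.4 CPM at V9 and 24.6, 22.6 and 23.8 CPM at V4 in WT, whereas all zb10 libraries lay between 43.8 and 56.9 CPM (difference 1.23, SE 0.17, adjusted p = 0.0376, edgeR). WT V4 leaf alone was low for this locus.

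In the other direction, Zm00001d051094 had 74.4, 60.1 and 54 CPM at V9 and 99.8 to 115 CPM at V4 in WT, and in zb10 72, 101 and 99.7 CPM at V9 and 48.5, 38.3 and 37.8 CPM in the V4 green section (difference -1.87, SE 0.23, adjusted p = 0.0353, edgeR). Zm00001d011642 had 98.4, 104 and 69.1 CPM at V9 and 125, 142 and 105 CPM at V4 in WT, which did not pass as a stage difference (adjusted p = 0.0873, edgeR). In zb10 it had 148, 166 and 156 CPM at V9 and 74, 69.9 and 71.1 CPM in the V4 green section (difference -1.58, SE 0.22, adjusted p = 0.0376, edgeR). Each of these 4 calls was lost on leaving out 8 to 10 of the 12 libraries in turn, with the sign unchanged. With the library size alone as the scaling, Zm00001d042673 and Zea_mays_newGene_10916 did not pass (adjusted p = 0.0612 and 0.0696, edgeR).

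**Figure D5:**
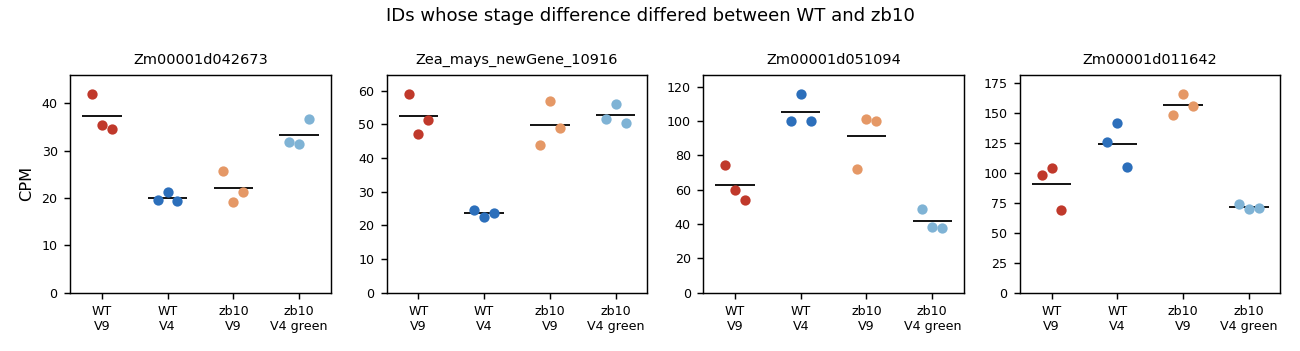
CPM of the 4 named IDs with a stage difference that differed between WT and zb10, with 1 point for each library of WT V9, WT V4, zb10 V9 and zb10 V4 green leaf and lines at the group means. The order of the V9 and V4 means turns round between WT and zb10 in each panel, although the zb10 libraries of Zea_mays_newGene_10916 overlap between the stages.

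The V9 libraries varied more than the V4 libraries, mostly through V9 replicate 2. V9 replicate 2 was more than 4-fold above both other V9 libraries in 30 genes and more than 4-fold below both in 177, while each of the other 5 WT libraries was that far above both of its group in 4 to 10 genes and that far below both in 3 to 44. The 177 genes had median levels of 13.5, 1.18 and 10.5 CPM in V9 replicates 1, 2 and 3, a median of 2.58 CPM in WT V4 leaf, and medians of 5.7, 3.46 and 3.5 CPM in the zb10 V9 libraries. Of these 177, 68 were called in the stage comparison, where 44.3% of all genes tested were, and the V9 and V4 libraries of 58 did not overlap, where 57.8% of all genes tested did not. Both counts are below those shares, but the 177 genes were chosen for a wide spread at V9, which by itself lowers both counts. No result about these genes is drawn from them. Without V9 replicate 2, 13842 genes were called, 6847 higher and 6995 lower, and 11147 of the 11616 calls were among them with the same sign. Zm00001d024903, named after its values were seen, shows the spread, with 793, 110 and 807 CPM in WT V9 leaf, against 1.49, 1.26 and 3.66 CPM in WT V4 leaf (log2 fold change 8.07, SE 0.96, adjusted p = 0.000627, edgeR). Its zb10 V9 libraries had 550, 146 and 340 CPM, so this ID also varied widely among V9 leaves of the mutant.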

How the data were processed

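The authors deposited a table of raw read counts for 21 RNA-seq libraries in 7 groups of 3. Per the labels' protocols, RNA came from a column kit and libraries from a SMARTer mRNA kit. Aligner, counter, build and strand setting: not given in the sources used here. Columns say zb9 for zb10 and 3L for V4, were matched to labelled groups by name, and 0 were left unmatched. The series design calls replicates biological. Tests used edgeR 4.0.16 in R 4.3.3 (TMM scaling, quasi-likelihood test, filterByExpr with a minimum count of 10 and total of 15, Benjamini-Hochberg adjusted p under 0.05) on the 6 WT libraries, the 6 zb10 libraries, or all 12 for the interaction. SEs are those implied by the F-test. CPM are scaled by TMM over all libraries. Bounds set the summed counts of 1 group against a floor of 3 counts over the other, both scaled by depth, so deeper libraries weigh more. They allow for counting error alone, as no molecular identifiers tell reads from molecules. Replicate pairs differed by far more than sampling noise. The fits were tested on simulated counts. IDs named are the 2 highest and 2 lowest per comparison past the threshold, whose libraries do not overlap between stages, with a mean log2(CPM + 0.5) of at least 2; for new loci, the lowest 2 and highest 2 of those. The IDs named for single groups and for low p were added after their values were seen. The planned lists by gene symbol were not used here, because no ID matched. Members, lists and gene groups were chosen with earlier results of these data known. Alternatives covered DESeq2 1.42.0, scaling, filters, libraries in the fit, depth, a replicate block, leaving out each library, and, chosen after seeing the data, a test against 2-fold.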

Additional observations from a re-analysis of the deposited data

Results flagged for a closer look

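The stage difference differed between WT and zb10 in 7 genes by the interaction contrast. Those named were Zm00001d042673, with a log2 stage difference in WT minus zb10 of 1.49, Zea_mays_newGene_10916 with 1.23, Zm00001d051094 with -1.87 and Zm00001d011642 with -1.58. Each passed the adjusted threshold in edgeR with TMM scaling on the 12 libraries. With library size alone Zm00001d042673 and Zea_mays_newGene_10916 did not pass. With TMM scaling and a replicate block 0 of the 7 genes passed. With all 15 leaf libraries in the fit 1 of the 7 passed, and with all 21 libraries 1 did. At V4 the zb10 libraries are of the green section alone, and the part of that sampling in these values was not tested.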

How the results depend on the processing

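The WT stage counts kept within 1.5 times of 11616 under every alternative run, 8753 to 13842 on leaving out 1 library (4162 to 6847 higher, 4591 to 6995 lower), except the test against 2-fold, chosen after seeing the data, which called 4079 (1728 higher, 2351 lower). No pairing of libraries by replicate number was seen (correlations of deviations 0.11, -0.01 and -0.06). With 3 libraries a stage, these values cannot show that pairing is absent. The replicate block gave 10086 calls. The zb10 counts ran from 8867 to 11084 on leaving out 1 library. The stage calls of the IDs named as highest, lowest, lowest in p or for a gene group were kept under every alternative run; those of the IDs named for the interaction were not recomputed.

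The interaction count of 7 (2 higher, 5 lower) was 4 with library size alone (0 higher), 398 with DESeq2 (241 higher, 157 lower), 10 without a filter (4 higher), 1 with all 15 leaf libraries (1 higher, 0 lower), 6 with all 21 libraries (3 lower), 0 with the replicate block (0 and 0; 2460 genes at an unadjusted p under 0.05; the 4 named IDs at adjusted p of 0.0942 to 0.115 in edgeR) and 0 to 216 on leaving out 1 library (0 to 168 higher, 0 to 48 lower). Of the 7 main calls, 1 was kept with all 15 leaf libraries and 1 with all 21 libraries. The other genes called with all 21 libraries were thus not among the 7. The cause of these changes was not tested.

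The median of endosperm-enriched genes, -0.03, was 0.023 with library size alone, 0.35 without a filter, -0.24 with a minimum count of 50, 0.045 with all leaf libraries, and -0.10 to 0.12 on leaving out 1 library (positive without V4 replicate 1, 2 or 3, at 0.06, 0.12 and 0.04, or V9 replicate 3, at 0.02). That of new loci, -0.17, was 0.0060 without a filter. The share of counts of endosperm-enriched genes, which did not differ (-0.000064 percentage points), differed by 0.071 points with 8-fold groups. On leaving out 1 library, the differences in percentage points ran from -5.27 to -2.24 for leaf-enriched and -4.42 to -0.90 for top 100 leaf genes. With V9 replicate 1 thinned to 35479089 counts, 11545 were called.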
